A study of Homo sapiens with 9 samples.

Results

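Lipid droplets store triglyceride and sterol esters under a shell of coat proteins, and 10 genes that build, coat, fill and empty them or carry glycerol were followed in HepG2 cells after knockdown of the long non-coding RNA *TUG1*. The genes were selected by symbol, with earlier results of these data in view: the coat and assembly genes *PLIN2*, *PLIN3* and *BSCL2*, the synthesis genes *DGAT1*, *DGAT2* and *LPIN1*, the lipolysis genes *PNPLA2*, *HILPDA* and *G0S2*, and the glycerol channel gene *AQP3*. Of these 10 genes, 9 were listed among the 12854 genes shared by the count tables of both knockdown lines. *G0S2*, an inhibitor of *PNPLA2*, was not analysed here.

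HepG2 cells are a long-established line from a human liver tumour. The 9 RNA-seq libraries comprised 3 from sh-Con cells, which carry a control shRNA and have the genotype label WT, 3 from sh1-*TUG1* cells and 3 from sh2-*TUG1* cells, in which separate shRNAs target *TUG1*. All 3 lines were made with a lentiviral vector whose shRNA is induced by doxycycline and were kept in low-glucose medium. Whether a line is a single clone, and whether the sequenced cells had been given doxycycline, are not stated. The replicates are described as technical, so SDs and p-values here cover the spread between these libraries and may not cover that between cultures. *TUG1* itself was not analysed here, so the knockdown could not be checked in these libraries.

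In liver cells, fatty acids are joined to a glycerol backbone in the endoplasmic reticulum, and the finished triglyceride buds off as a droplet at sites marked by seipin, the product of *BSCL2*. Perilipins coat the droplet and control access of lipases. Lipolysis begins with the lipase ATGL (*PNPLA2*), and the glycerol it finally sets free can cross the membrane through aquaglyceroporins such as *AQP3*.

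The study asked whether *TUG1* acts through miR-122-5p, an abundant microRNA of hepatocytes, so its mature RefSeq sequence is shown with its seed, bases 2 to 8, in capitals.
hsa-miR-122-5p: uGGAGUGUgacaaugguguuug
The DNA letters that pair with this seed, ACACTCC, occur in the longest annotated 3′ UTR of 1013 of 11882 listed genes (8.53%). Of the 10 genes, *DGAT1* has 1 match, which starts at base 444 of a 3′ UTR of 1970 bases, and the other 9 have 0 matches. A match of letters is a description and was not tested as a binding site.

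Promoter sequences (RefSeq, GRCh38.p14) were matched for 7 of the 10 genes. The 250 bases before the RefSeq start are shown for *PLIN2* (chr9:19127493-19127742, minus strand) and *AQP3* (chr9:33447594-33447843, minus strand), the genes with the largest differences between the knockdown lines. Capitals mark the letters ACGTG on either strand, the core of the element read by hypoxia-inducible factors, or the CACGTG that contains it on both strands.
PLIN2: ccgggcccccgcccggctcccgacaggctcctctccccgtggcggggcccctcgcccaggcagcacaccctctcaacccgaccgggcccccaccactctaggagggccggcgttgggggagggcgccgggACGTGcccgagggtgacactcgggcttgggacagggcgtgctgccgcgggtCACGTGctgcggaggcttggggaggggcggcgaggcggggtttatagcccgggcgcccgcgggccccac
AQP3: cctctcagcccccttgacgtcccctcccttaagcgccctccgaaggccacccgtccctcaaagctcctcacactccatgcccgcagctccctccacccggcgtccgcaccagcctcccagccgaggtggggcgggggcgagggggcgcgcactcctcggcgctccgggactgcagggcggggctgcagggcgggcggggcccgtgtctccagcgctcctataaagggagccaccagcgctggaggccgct
In windows of 300 bases that run to 50 bases after the start, *PLIN2* holds 3 matches to ACGTG over both strands, of which 2 overlap in 1 CACGTG, and *AQP3* holds 0. ACGTG is found in 21.4% and CACGTG in 7.26% of 35116 promoters of this length. AGGTCA, a half-site of nuclear receptors such as the PPARs, is found in 13.8% of them, and among the genes followed here in that of *PNPLA2*. These counts are of letters in a window and say nothing about which factors act there.

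Levels are given as CPM, the reads of a gene relative to the library's total, scaled by the TMM method over the 9 libraries. The libraries held 33049003 to 39387125 counts over the shared genes, with TMM factors of 0.974 to 1.02. All 8 hepatocyte markers checked (*ALB*, *AFP*, *APOA1*, *TTR*, *SERPINA1*, *TF*, *FGB* and *HNF4A*) were listed. Their summed level was 34000 to 35400 CPM in sh-Con, 37100 to 38600 in sh1-*TUG1* and 43000 to 44300 in sh2-*TUG1*. Of 8 markers of blood, endothelial and stromal cells, 4 were listed (*ACTA2*, *VWF*, *CD68* and *PECAM1*), summing to 104 to 120, 88.3 to 95.9 and 64.5 to 72.5 CPM in the same order. *PTPRC*, *COL1A1*, *COL1A2* and *DCN* were not listed in both tables. The lists did not move as wholes. *ALB* carried most of the rise of the first sum, with 13500 CPM in sh-Con and 25400 in sh2-*TUG1*. In that line 3 of the 8 hepatocyte markers rose and 5 fell by edgeR adjusted p (21.6% and 21.9% of all genes). Among those that fell were *SERPINA1* (7440 to 4920 CPM) and *TTR* (135 to 76.7 CPM). In sh1-*TUG1*, 4 rose, *TTR* among them (187 CPM), and 2 fell (12.5% and 12.3% of all genes). *CD68* carried most of the fall of the other sum (63.7, 35.2 and 20.8 CPM), while *VWF* stood at 1.49, 3.96 and 4.7 CPM. All 9 libraries are of the HepG2 line, so these reads are given as levels in HepG2 cells. The part of these markers in the results was not tested. In bulk RNA, fewer cells that express a marker and less of its RNA per cell cannot be told apart.

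Divided by exon length, the levels of the genes differed widely. In sh-Con, *PLIN2* stood highest at 145 ± 2.94 CPM per kb (SD, n = 3), followed by *PLIN3* at 42.1 ± 0.362 CPM per kb. *AQP3* at 28.5 ± 2.08 and *PNPLA2* at 24.5 ± 2.29 CPM per kb came next and lay within the sum of their SDs. *DGAT1* had 6.73 ± 0.365 CPM per kb. *DGAT2* at 5.28 ± 0.212, *LPIN1* at 5.19 ± 0.0566 and *HILPDA* at 4.62 ± 0.554 CPM per kb could not be ordered beyond their spread. *BSCL2* was lowest, at 0.964 ± 0.461 CPM per kb. In sh2-*TUG1*, *AQP3* at 61.4 ± 2.02 CPM per kb passed *PLIN3* at 49.2 ± 1.27 CPM per kb, whereas in sh1-*TUG1* *AQP3* at 22.4 ± 1.54 CPM per kb lay below *PNPLA2* at 33.6 ± 0.495 CPM per kb.

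Each line was compared with sh-Con, and the lines with each other, in edgeR's quasi-likelihood test. A gene was a DEG where it changed more than 1.5-fold with an adjusted p below 0.05. Both knockdown lines were set against the same 3 sh-Con libraries, so their changes are not independent of each other. Since the 10 genes were proposed with results of these contrasts known, their changes against sh-Con, and the differences between the lines that are built from the same libraries, are given as a description without p-values.

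**Figure D1:**
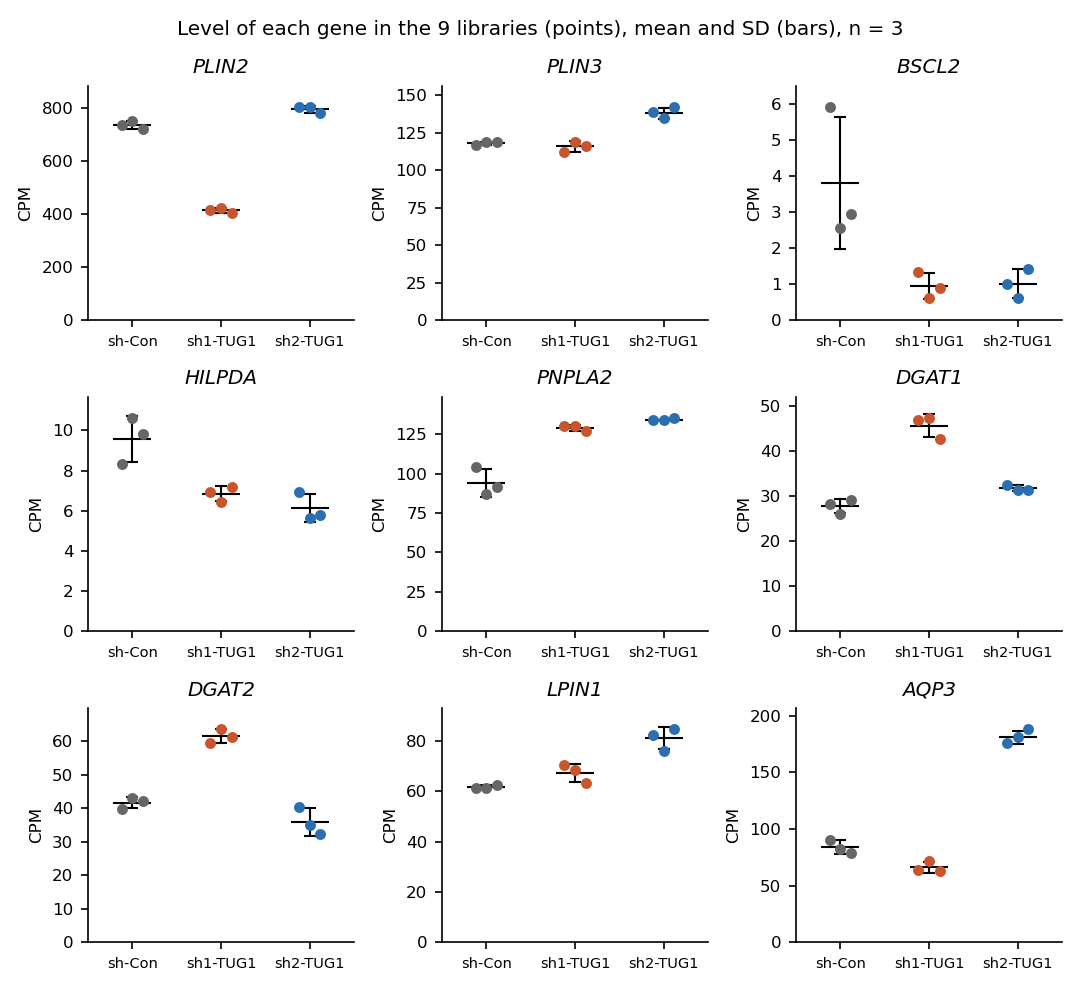
CPM of the 9 genes in each library (points), with the mean and SD of 3 libraries (bars), on linear axes that start at 0. *PLIN2* was lowest in sh1-*TUG1*, at 405 to 423 CPM, *AQP3* was highest in sh2-*TUG1*, at 176 to 188 CPM, and *DGAT1* and *DGAT2* were highest in sh1-*TUG1*.

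*PLIN2*, the main perilipin of liver cell droplets, was lower in sh1-*TUG1* and not in sh2-*TUG1*. The gene spans chr9:19108375-19149290 on the minus strand (GRCh38, GENCODE 29, as for all gene positions here). Its levels were 735, 751 and 721 CPM in the sh-Con libraries, 416, 423 and 405 CPM in those of sh1-*TUG1*, and 803, 803 and 780 CPM in those of sh2-*TUG1*. All 3 sh1-*TUG1* libraries lay below every other library, and the sh2-*TUG1* libraries lay just above sh-Con. The log2(fold change) against sh-Con was −0.83 ± 0.038 (SE) in sh1-*TUG1*, a DEG, and 0.11 ± 0.041 in sh2-*TUG1*, not a DEG. *PLIN2* was 1.92-fold higher in sh2-*TUG1* than in sh1-*TUG1* (log2 difference 0.94 ± 0.036).

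*PLIN3*, a perilipin that moves between the cytosol and young droplets, varied little. It lies at chr19:4838341-4867768 on the minus strand. It had 117, 119 and 119 CPM in the sh-Con libraries, 112, 119 and 116 CPM in those of sh1-*TUG1*, and 139, 135 and 142 CPM in those of sh2-*TUG1*. The sh-Con and sh1-*TUG1* libraries overlapped, and all 3 sh2-*TUG1* libraries were above them. Against sh-Con it changed by −0.03 ± 0.045 (log2, SE) in sh1-*TUG1* and by 0.22 ± 0.046 in the sh2-*TUG1* line, and the lines differed by 0.25 ± 0.041 on the log2 scale, which is under the 1.5-fold limit of a DEG. Within a library, 6.27, 6.31 and 6.06 *PLIN2* reads were counted for each *PLIN3* read in sh-Con, 3.71, 3.55 and 3.48 in sh1-*TUG1*, and 5.77, 5.97 and 5.51 in sh2-*TUG1*. This ratio, which no scaling of the libraries can change, was lower in each sh1-*TUG1* library than in any other, and lower in each sh2-*TUG1* library than in any sh-Con library.

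*BSCL2*, which encodes seipin, was the only one of the 9 genes called as a DEG in both lines, and its reads were few. It lies at chr11:62690275-62709845 on the minus strand, and 194, 87 and 111 reads were counted in sh-Con, 46, 23 and 34 in sh1-*TUG1*, and 33, 21 and 55 in sh2-*TUG1*. These are levels of 5.92, 2.57 and 2.97 CPM in the sh-Con libraries, 1.35, 0.634 and 0.902 CPM in those of sh1-*TUG1*, and 1.02, 0.629 and 1.43 CPM in those of sh2-*TUG1*. Every sh-Con library was above every knockdown library, with a CV of 47.8% within sh-Con. Its log2(fold changes) were −1.99 ± 0.38 for sh1-*TUG1* and −1.89 ± 0.39 for sh2-*TUG1*, and the call in sh1-*TUG1* was lost when tested against the 1.5-fold limit itself (edgeR's glmTreat), as was that of *DGAT1* there. Between the lines the libraries overlapped and the log2 difference was 0.1 (95% interval −0.81 to 1.02).

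All 19571 bases of *BSCL2* also lie within *HNRNPUL2-BSCL2*, an annotated readthrough gene on the same strand, and the count of this gene ran unevenly through the libraries. It had 0, 403 and 169 reads in sh-Con, 529, 741 and 168 in sh1-*TUG1*, and 551, 662 and 148 in sh2-*TUG1*. The sh-Con library with 0 readthrough reads was the one with the most *BSCL2* reads. In each group, replicate 2 had the most readthrough reads and the fewest *BSCL2* reads. *BSCL2* held 100%, 17.8% and 39.6% of the reads of both genes in sh-Con, 8%, 3.01% and 16.8% in sh1-*TUG1*, and 5.65%, 3.07% and 27.1% in sh2-*TUG1*. When the reads of both genes were added together, the log2(fold change) turned to 0.63 for sh1-*TUG1* and 0.64 for sh2-*TUG1*, and neither was a DEG. The readthrough gene alone had 1.29 ± 0.88 in sh1-*TUG1* (edgeR adjusted p = 0.324) and 1.29 ± 0.9 in sh2-*TUG1* (edgeR adjusted p = 0.274). In the knockdown libraries most of the added reads were those of the readthrough gene. How reads shared by these genes were assigned is not stated and was not tested, so the change of *BSCL2* is uncertain. Without the sh-Con library that had 0 readthrough reads, *BSCL2* itself had −1.54 and −1.43 and was still called in both lines.

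**Figure D2:**
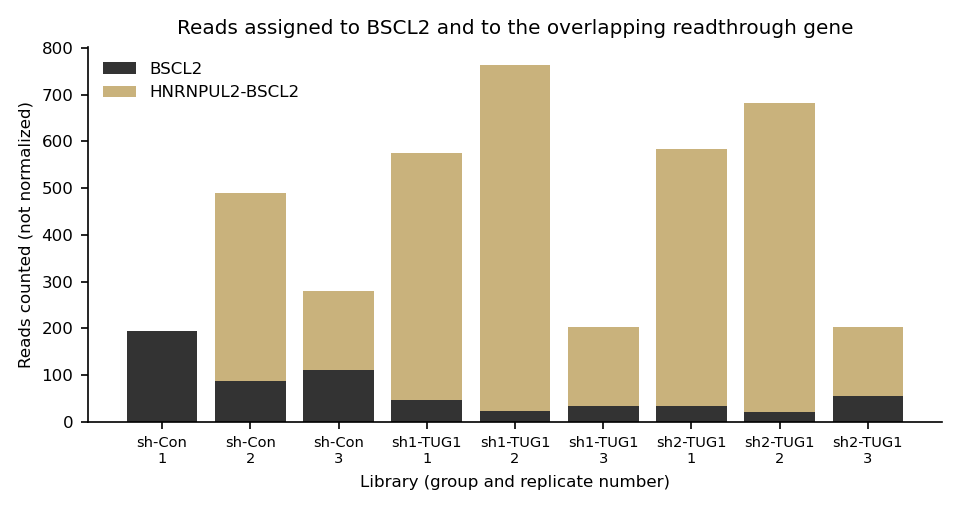
Reads counted per library, not normalized, for *BSCL2* (dark) stacked with those for the overlapping *HNRNPUL2-BSCL2* (light). The sum ranged from 194 reads in sh-Con replicate 1 to 764 reads in sh1-*TUG1* replicate 2, while *BSCL2* alone ranged from 21 to 194 reads.

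The synthesis genes were higher in one or the other line. *DGAT1* and *DGAT2* encode unrelated enzymes that each add the last fatty acid to make triglyceride. *DGAT1* had 28.2, 26.1 and 29.1 CPM in the sh-Con libraries, 46.9, 47.2 and 42.7 CPM in those of sh1-*TUG1*, and 32.4, 31.3 and 31.3 CPM in those of sh2-*TUG1*. The 3 groups did not overlap. Its log2(fold change) against sh-Con was 0.71 ± 0.066 in sh1-*TUG1*, a DEG, and 0.18 ± 0.063 in sh2-*TUG1*, and it was lower in the sh2-*TUG1* line than in the sh1-*TUG1* line by a log2 difference of −0.53 ± 0.06, just under the 1.5-fold limit. *DGAT1* (chr8:144314584-144326910, minus strand) overlaps 139 bases of *HSF1* on the other strand. Whether the counting used strand is not stated. *HSF1* had log2(fold changes) of 0.066 ± 0.055 (edgeR adjusted p = 0.425) in sh1-*TUG1* and 0.25 ± 0.058 (edgeR adjusted p = 0.00668) in sh2-*TUG1*.

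*DGAT2* (chr11:75759512-75801535, plus strand) had 39.9, 43.2 and 42.1 CPM in the sh-Con libraries, 59.5, 63.6 and 61.3 CPM in those of sh1-*TUG1*, and 40.5, 35.1 and 32.4 CPM in those of sh2-*TUG1*. Every sh1-*TUG1* library was above all others, and sh2-*TUG1* overlapped sh-Con. The log2(fold change) against sh-Con was 0.56 ± 0.056 in sh1-*TUG1*, slightly under the DEG limit, and −0.22 ± 0.083 in sh2-*TUG1*. *DGAT2* was lower in the sh2-*TUG1* line than in the sh1-*TUG1* line by a log2 difference of −0.77 ± 0.074 (a DEG). Within a library, the ratio of *DGAT2* to *DGAT1* reads was 1.5 ± 0.13 in sh-Con, 1.35 ± 0.0837 in sh1-*TUG1* and 1.14 ± 0.108 in sh2-*TUG1* (mean ± SD, n = 3).

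*LPIN1* encodes lipin-1, the phosphatase that makes the diacylglycerol both DGAT enzymes use. It spans chr2:11677595-11827409 on the plus strand. It had 61.2, 61.2 and 62.4 CPM in the sh-Con libraries, 70.3, 68.3 and 63.3 CPM in those of sh1-*TUG1*, and 82.2, 76 and 84.5 CPM in those of sh2-*TUG1*. The groups followed one another without overlap. On the log2 scale *LPIN1* was 0.13 ± 0.056 above sh-Con in sh1-*TUG1* and 0.39 ± 0.057 above it in sh2-*TUG1*, and the lines differed by 0.27 ± 0.056, with no DEG.

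The lipase gene stood above sh-Con and the gene of its inhibitor below it in both lines, by amounts mostly under the DEG limit. *PNPLA2* (chr11:818902-825573, plus strand) encodes ATGL, which removes the first fatty acid from triglyceride. It had 104, 87.1 and 91.2 CPM in the sh-Con libraries, 130, 130 and 127 CPM in those of sh1-*TUG1*, and 134, 134 and 135 CPM in those of sh2-*TUG1*. All 6 knockdown libraries were above sh-Con. *PNPLA2* was higher than in sh-Con by a log2 of 0.46 ± 0.064 for sh1-*TUG1* and 0.51 ± 0.066 for sh2-*TUG1*, both under the DEG limit of fold. The lines differed by 0.059 (95% interval −0.068 to 0.19).

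*HILPDA* (chr7:128455849-128458418, plus strand) encodes a small droplet protein that inhibits ATGL and is known as a hypoxia-induced gene. Its levels were 8.33, 10.6 and 9.8 CPM in the sh-Con libraries, 6.91, 6.45 and 7.19 CPM in those of sh1-*TUG1*, and 6.92, 5.63 and 5.81 CPM in those of sh2-*TUG1*. All knockdown libraries lay below sh-Con. The log2(fold change) against sh-Con was −0.48 ± 0.13 in sh1-*TUG1*, not a DEG, and −0.65 ± 0.14 in sh2-*TUG1*, a DEG that was lost without sh-Con replicate 2, the highest library (−0.57), and with glmTreat. *HILPDA*, *DGAT1*, *DGAT2* and *LPIN1* overlap annotated non-coding genes on the same strand. *PLIN3*, *PNPLA2*, *DGAT2* and *LPIN1* overlap genes on the other strand that are annotated as antisense. None of these overlapping genes was analysed here, so reads of the genes followed could include theirs. For *HILPDA* the lines overlapped and differed by −0.16 (95% interval −0.45 to 0.13).

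*AQP3*, whose product lets water and glycerol through the plasma membrane, differed most between the lines. It lies at chr9:33441154-33447633 on the minus strand. It had 90.7, 82.8 and 78.7 CPM in the sh-Con libraries, 64.1, 71.4 and 63.1 CPM in those of sh1-*TUG1*, and 176, 181 and 188 CPM in those of sh2-*TUG1*. The sh1-*TUG1* libraries were all below sh-Con and the sh2-*TUG1* libraries all above it. The log2(fold change) against sh-Con was −0.34 ± 0.069 in sh1-*TUG1*, not a DEG, and 1.11 ± 0.061 in sh2-*TUG1*, a DEG. *AQP3* was 2.74-fold higher in sh2-*TUG1* than in sh1-*TUG1* (log2 difference 1.45 ± 0.064).

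**Figure D3:**
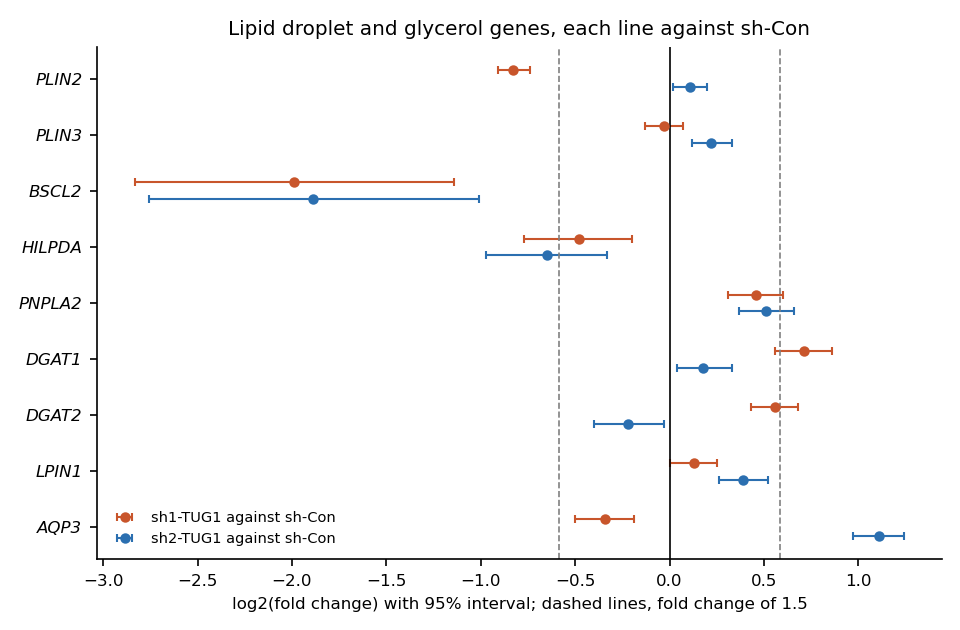
Log2(fold change) of the 9 genes against sh-Con in sh1-*TUG1* and sh2-*TUG1* (points) with 95% intervals (bars), and dashed lines at a fold change of 1.5 in either direction. *BSCL2* has the widest intervals, *AQP3* lies at −0.34 and 1.11, and *PLIN2* at −0.83 and 0.11.

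In counts, 1 of the 9 genes was a higher DEG in sh1-*TUG1* (*DGAT1*) and 2 were lower DEGs (*PLIN2* and *BSCL2*), beside 2.44% and 2.52% of the 13017 genes tested. In sh2-*TUG1*, 1 was higher (*AQP3*) and 2 were lower (*BSCL2* and *HILPDA*), beside 4.35% and 8.97% of 12953 genes. By adjusted p alone, sh1-*TUG1* had 3 of the genes higher and 4 lower (12.5% and 12.3% of all genes), and sh2-*TUG1* had 5 higher and 2 lower (21.6% and 21.9%). Between the lines, 2 genes were higher in sh2-*TUG1* (*PLIN2* and *AQP3*) and 1 lower (*DGAT2*) as DEGs, beside 2.56% and 8.04% of 12854 genes. By adjusted p alone, 4 were higher and 2 lower there, beside 21% and 21.7%. These contrasts were or may have been known when the genes were chosen, and nothing is read from the counts. Over the 9 genes the median change on the log2 scale was −0.03 for sh1-*TUG1*, 0.18 for sh2-*TUG1* and 0.1 between the lines, beside 0.0027, −0.0048 and −0.00067 as medians over all genes.

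The rest of the pathway was followed in a list of 67 other genes of droplets, triglyceride and sterol ester synthesis, lipolysis, glycerol handling and their regulators. They were listed for function and not for how they moved, though with earlier results of these data known. Of these, 53 were tested in each line and 52 between the lines. In sh1-*TUG1*, 2 rose and 2 fell as DEGs, where 2.44% and 2.52% of all genes did. In sh2-*TUG1*, 3 rose and 8 fell, beside 4.35% and 8.97% of all genes. Of these, 2 that rose and 4 that fell were synthesis genes, and 1 that rose was *MGLL*, listed for that line alone. Between the lines, 1 was higher and 5 were lower in sh2-*TUG1*, beside 2.56% and 8.04%. Nothing particular to the list is read from these counts. The list medians were −0.0062, −0.024 and −0.11 on the log2 scale.

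Among coat and assembly genes, 12 of 15 were tested. *PLIN4*, a perilipin known from fat tissue, fell in both lines, from 17.2 ± 1.41 CPM in sh-Con to 10.8 ± 0.328 in sh1-*TUG1* and 7.63 ± 0.349 in sh2-*TUG1* (log2(fold change) −0.68 and −1.18, edgeR adjusted p = 0.000658 and 2.05e-05). *PLIN5*, the perilipin of oxidative tissues, rose in sh1-*TUG1* from 2.01 ± 0.436 to 3.5 ± 0.505 CPM (0.79, edgeR adjusted p = 0.0288) and had 2.56 ± 0.316 CPM in sh2-*TUG1* (0.34, edgeR adjusted p = 0.267). *CIDEC*, which drives droplet fusion, had 5.92 ± 0.657 CPM in sh-Con and fell to 1.93 ± 1.07 CPM in sh2-*TUG1* (−1.6, edgeR adjusted p = 0.0045), where it also lay below sh1-*TUG1* (−1.05, edgeR adjusted p = 0.0171). In sh1-*TUG1* it fell to 4.05 ± 0.288 CPM (−0.55, edgeR adjusted p = 0.0275), under the fold limit. *TMEM159*, the seipin partner also named *LDAF1*, was lower in the sh2-*TUG1* line than in the sh1-*TUG1* line (−0.74, edgeR adjusted p = 0.00994). By the DEG limits, then, *PLIN2* was lower in sh1-*TUG1*, *PLIN4* in both lines, and *PLIN5* was higher in sh1-*TUG1*.

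Among synthesis genes, the acyltransferases of the first step did not change alike. *GPAM*, the mitochondrial enzyme for the first step, rose from 152 ± 23.2 CPM in sh-Con to 244 ± 11.1 in sh1-*TUG1* (log2(fold change) 0.68, edgeR adjusted p = 0.000744) and 246 ± 12.9 in sh2-*TUG1* (0.69, edgeR adjusted p = 0.000405). *GPAT3*, an enzyme of the endoplasmic reticulum for the same step, fell from 73.8 ± 4.03 CPM to 35.8 ± 1.56 in sh1-*TUG1* (−1.05, edgeR adjusted p = 4.81e-06) and was 64.8 ± 1.22 CPM in sh2-*TUG1* (−0.19, edgeR adjusted p = 0.0246, not a DEG). Between the lines *GPAT3* differed by 0.86 on the log2 scale (edgeR adjusted p = 6.33e-07), in the same direction as *PLIN2*. *GPAT4*, a further enzyme of that step, had 86 ± 3.33 CPM in sh-Con and rose by less than the fold limit, to 103 ± 1.9 in sh1-*TUG1* (0.26, edgeR adjusted p = 0.00479) and 104 ± 1.76 in sh2-*TUG1* (0.28, edgeR adjusted p = 0.00208). In sh1-*TUG1*, 7 of 18 synthesis genes tested fell and 4 rose by adjusted p, beside 12.3% and 12.5% of all genes. In sh2-*TUG1*, 9 of 17 synthesis genes tested fell and 5 rose by adjusted p, beside 21.9% and 21.6% of all genes. As DEGs in sh2-*TUG1*, 4 fell and 2 rose, beside 8.97% and 4.35% of all genes. The 4 that fell were *AGPAT2*, of the second acylation step (−0.81), the monoacylglycerol acyltransferases *MOGAT2* (−1.27) and *MOGAT3* (−0.77), and the cholesterol acyltransferase *SOAT2* (−0.74). Their edgeR adjusted p-values were 9.17e-05, 9.74e-06, 0.000594 and 2.28e-05. *AGPAT2* (−0.56, edgeR adjusted p = 0.00288) and *MOGAT3* (−0.39, edgeR adjusted p = 0.0244) also fell in sh1-*TUG1*, under the fold limit. *ACSL1*, which activates fatty acids, rose in the sh2-*TUG1* line from 166 ± 8.7 to 270 ± 14.2 CPM (0.7, edgeR adjusted p = 1.82e-05). *SOAT2* and *MOGAT2* were lower in the sh2-*TUG1* line than in the sh1-*TUG1* line (−1 and −1.02, edgeR adjusted p = 2.86e-07 and 3.07e-06), as *DGAT2* was. Against sh-Con, *SOAT2* rose in sh1-*TUG1* by less than the fold limit (0.26, edgeR adjusted p = 0.00839). *MOGAT2* stood below sh-Con there (−0.24, edgeR adjusted p = 0.0512).

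Among lipolysis genes, *MGLL*, which splits the last fatty acid from glycerol, was listed with sh2-*TUG1* and not with sh1-*TUG1*. Being listed only with the line in which it is higher favours a rise. Its log2(fold change) in sh2-*TUG1* (0.83 ± 0.24) is therefore a description. The carboxylesterase gene *CES1* fell in sh2-*TUG1* from 95.1 ± 2.72 to 61.6 ± 3.4 CPM (−0.63, edgeR adjusted p = 3.38e-05). In sh1-*TUG1* edgeR called 0 of 7 lipolysis genes as DEGs and DESeq2 called 0, with 5 at an unadjusted p under 0.05 (37.3% of all genes) and 1 rising and 3 falling by adjusted p alone (12.5% and 12.3% of all genes). *ABHD5*, the activator of ATGL, had 10.8 ± 1.62 CPM in sh-Con, 10.5 ± 0.742 in sh1-*TUG1* and 14.2 ± 1.33 in sh2-*TUG1* (0.4, edgeR adjusted p = 0.0311, under the fold limit). By adjusted p alone, 2 of 8 lipolysis genes rose in sh2-*TUG1* (*MGLL* and *ABHD5*) and 5 fell, beside 21.6% and 21.9% of all genes. Those that fell included *CES1*, *LIPA* (−0.46) and *ABHD6* (−0.51). The 3 that fell by adjusted p in sh1-*TUG1* were the same genes, *CES1* (−0.15), *LIPA* (−0.24) and *ABHD6* (−0.39).

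Of the glycerol genes other than *AQP3*, 1 of 5 tested was a DEG in sh2-*TUG1*. *GPD1*, a dehydrogenase that links glycolysis to the glycerol backbone, fell in sh2-*TUG1* from 26.3 ± 0.312 to 10.5 ± 0.314 CPM (log2(fold change) −1.33, edgeR adjusted p = 1.51e-06). It had 23.7 ± 1.16 CPM in sh1-*TUG1* (−0.15, edgeR adjusted p = 0.111). It was lower in the sh2-*TUG1* line than in the sh1-*TUG1* line by a log2 difference of −1.17 (edgeR adjusted p = 2.88e-07). *GK*, the glycerol kinase, had 308 ± 11.8 CPM in sh-Con, 302 ± 8.85 with the sh1-*TUG1* shRNA and 351 ± 7.39 with that of sh2-*TUG1*. The aquaglyceroporin gene *AQP7* had 3.39 ± 0.275 CPM in sh-Con, 4.47 ± 0.478 in sh1-*TUG1* (0.4, edgeR adjusted p = 0.112) and 3.45 ± 1.35 in sh2-*TUG1*. *GPD1L* rose in sh2-*TUG1* from 17.3 ± 1.09 to 23.7 ± 1.01 CPM (0.45, edgeR adjusted p = 0.00134, under the fold limit). By adjusted p alone, 2 of these 5 genes rose in sh2-*TUG1* and 1 fell, beside 21.6% and 21.9% of all genes. In sh2-*TUG1*, then, *AQP3* and *GPD1* stood on opposite sides of sh-Con, with *AQP3* 2.15-fold its sh-Con level and *GPD1* 0.399-fold. *GPD1L* stood on the side of *AQP3*.

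The 11 regulators tested gave 0 DEGs in each of the 3 comparisons by edgeR and 0 by DESeq2, with 7, 6 and 7 at an unadjusted p under 0.05, as were 37.3%, 51.5% and 50.5% of all genes. By adjusted p alone, 3 rose and 2 fell in sh1-*TUG1*, 1 rose and 2 fell in sh2-*TUG1*, and between the lines 7 differed, 2 of them higher and 5 lower in sh2-*TUG1*, beside 12.5% and 12.3%, 21.6% and 21.9%, and 21% and 21.7% of all genes. *PPARG*, the nuclear receptor of fat storage, had 64 ± 4.14 CPM in sh-Con, 55.1 ± 2.35 in sh1-*TUG1* and 70.2 ± 2.76 in sh2-*TUG1* (sh2-*TUG1* against sh1-*TUG1* 0.35, edgeR adjusted p = 0.000727). *SREBF1*, a driver of lipid synthesis genes, had 107 ± 5.35, 106 ± 2.67 and 103 ± 1.31 CPM in the same order.

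**Figure D4:**
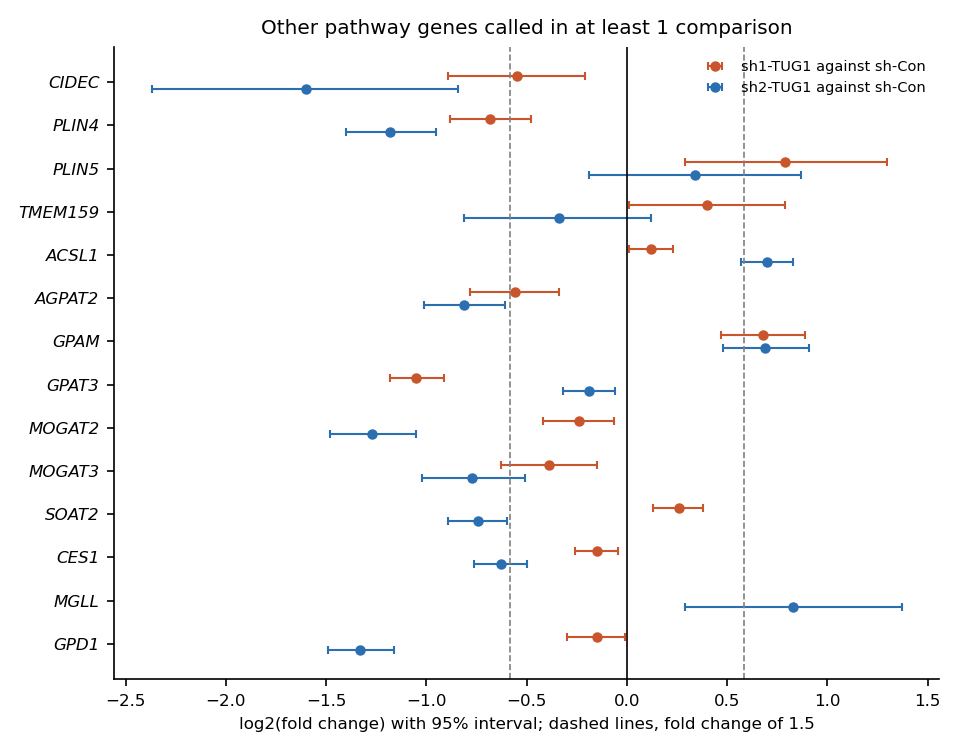
Log2(fold change) against sh-Con of the 14 listed pathway genes that were DEGs in at least 1 comparison (points) with 95% intervals (bars), ordered by role, with dashed lines at a fold change of 1.5. *GPAM* lies at 0.68 and 0.69 in the lines, *GPAT3* at −1.05 and −0.19, and *GPD1* at −0.15 and −1.33. *MGLL* was tested in sh2-*TUG1* alone.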

How the data were processed

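RNA-seq of 9 HepG2 libraries (sh-Con and both knockdown lines, with 3 technical replicates per group) was analysed from the count tables that the authors deposited for each knockdown line. The submitters' processing notes name HISAT2, StringTie and GRCh38; versions are not given in the sources used here. The deposited counts are read counts per gene without normalization. The tables also hold FPKM values, and a false discovery rate (an adjusted p-value) and a log2 fold change of the authors' own comparison, none of which were used. Per-sample columns that could not be matched to a sample numbered 0. *TUG1* and *PGAM4* were not analysed here.

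Counts were tested in R 4.3.3 with edgeR 4.0.16 (TMM, quasi-likelihood test, Benjamini–Hochberg adjustment over all genes of the table), each line against sh-Con in 6 libraries, and the knockdown lines against each other in a model of all 9. Intervals use the t distribution with the fit's degrees of freedom. filterByExpr removed 0 genes, since the lowest total count of a gene was 152 in the sh1-*TUG1* table and 140 in the sh2-*TUG1* table. CPM are TMM-scaled. Symbols that could not be read, 7 per table, took the GENCODE 29 name. The test scripts were checked on simulated counts. Libraries of a group differed beyond sampling noise (chi-squared per degree of freedom 6.41 to 25.8 over 10772 genes), so all were counted. Intervals and SDs rest on 3 libraries per group.

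The 10 genes, the pathway list and the alternatives were chosen with earlier results of these data known, and it is not recorded whether the comparison between the lines bore on that choice. Named are all 10 genes, pathway genes that were DEGs in at least 1 comparison with up to 3 others per role, genes overlapping a member, and, for a member called in both lines, the 3 nearest profiles among genes with at least 10 CPM. A gene that this rule names is not reported here. Alternatives were adjusted p alone, edgeR's glmTreat, DESeq2 1.42.0, RLE factors or library size alone in place of TMM, no filter or at least 1 CPM in 3 libraries, a replicate block, 1 fit of all libraries, leaving out each library, and adding *BSCL2* to its readthrough gene.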

Additional observations from a re-analysis of the deposited data

Results flagged for a closer look

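For 6 of the 9 genes the lines differed past the adjusted p threshold in the direct edgeR comparison over 9 libraries. Of these, 4 were higher and 2 lower in sh2-*TUG1*, beside 21% and 21.7% of all genes. The genes were chosen with results of these libraries known, so the differences are a description and not independent evidence. The log2 difference, sh2-*TUG1* minus sh1-*TUG1*, was 0.94 for *PLIN2*, 0.25 for *PLIN3*, 0.27 for *LPIN1* and 1.45 for *AQP3*, and −0.53 for *DGAT1* and −0.77 for *DGAT2*. All 3 libraries of one line lay on one side of the other for each of these genes. This was also so for *PNPLA2*, whose difference of 0.059 was not called. The share of all genes so separated was not counted, and nothing is read from the separation. For *PLIN2* and *AQP3* every sh1-*TUG1* library lay below, and every sh2-*TUG1* library above, all of sh-Con. The cause of these differences was not tested, and the level of *TUG1* in each line was not analysed here. Groups of 3 are too small for the test of single deviating libraries.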

How the results depend on the processing

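By adjusted p alone, the members called numbered 7, 7 and 6 (sh1-*TUG1*, sh2-*TUG1*, and between the lines) in place of 3 each, and the pathway genes 24, 31 and 30 in place of 4, 11 and 6. Tested against the 1.5-fold limit itself (glmTreat), 1 member and 1 pathway gene were called in sh1-*TUG1* and 3 pathway genes in sh2-*TUG1*. The member calls lost were *BSCL2* and *DGAT1* in sh1-*TUG1*, *HILPDA* in sh2-*TUG1* and *DGAT2* between the lines. Without single libraries the members called were 3 to 3, 2 to 4 and 3 to 3, and the pathway genes 3 to 6, 10 to 11 and 6 to 7. *BSCL2* turned to 0.63 and 0.64 against sh-Con when added to *HNRNPUL2-BSCL2*. Its uncalled difference between the lines ran from −0.22 to 0.42 without single libraries (−0.12 without sh1-*TUG1* replicate 2, −0.22 without sh2-*TUG1* replicate 3), and that of *PNPLA2* turned to −0.005 with library size alone. Without sh-Con replicate 1, *PNPLA2* became a DEG in sh2-*TUG1* (0.59), and *DGAT1* became one between the lines with library size alone (−0.59). Of 426 values of members under alternatives, 403 kept their direction and side of the threshold, 5 lost and 13 gained a call, and 5 reversed. Over genes with at least 100 reads in every library, deviations of same-numbered libraries had r of −0.19 to 0.05, against −0.14 to 0.25 for other pairs. Reads of *BSCL2* and its readthrough gene, which fall outside those genes, did follow the replicate number in part. With a replicate block the members called were 3, 3 and 3 and the pathway genes 3, 10 and 6. Low counts limit *BSCL2*.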

Other observations

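Among the genes whose profile over the 9 libraries was nearest to that of *BSCL2*, of 9312 compared, were *SLC16A6*, a member of the monocarboxylate transporter family, and *IGFBP3*, an IGF-binding protein. Their root mean square distance to *BSCL2* in centred log2 CPM was 0.408 and 0.422. *SLC16A6* changed on the log2 scale by −2.1 with the first shRNA (sh1-*TUG1*) and −2.01 with the other, and *IGFBP3* by −1.63 and −1.6. They were picked for this likeness, so the values are a description, and the reads of *BSCL2* carry the uncertainty of its readthrough gene.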
